A study of Mus musculus with 16 samples.

Results

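The genes described here encode the constant regions of mouse antibodies and the chain that joins them into polymers: the heavy chains Ighm, Ighd, Ighg1, Ighg2b, Ighg2c, Ighg3 and Igha, the light chains Igkc and Iglc1, and Jchain. These 10 genes were taken by symbol from a count table of 55357 genes, all 10 were present, and all 10 passed the filter on low counts that left 14421 genes for testing. They were measured by strand-specific RNA sequencing of mouse liver, in 16 libraries that form 4 groups of 4. AUG livers had the telomerase RNA gene genotype mTERC CUG/AUG, del7 livers had mTERC 29_35del, which lacks 7 nucleotides at positions 29 to 35, and AUG_WT and del7_WT were the wild-type groups named for each. No treatment was given, each library started from 10 mg of frozen liver and 550 ng of RNA depleted of ribosomal RNA, and no age, sex or strain is given for the mice in the labels. The labels do not say that replicates were separate animals, so the p-values measure the spread between these libraries, which may be technical.

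An antibody is built from paired heavy and light chains. A B cell first makes IgM and IgD from Ighm and Ighd, and can then switch by DNA recombination to one of the IgG genes or to Igha while it keeps the same variable segment. Plasma cells, the secreting end stage, carry most immunoglobulin mRNA, and Jchain links secreted IgM and IgA into polymers. Liver receives blood from the gut and spleen, and hepatocytes carry the polymeric immunoglobulin receptor, which moves such polymers into bile.

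Immunoglobulin reads were rare in 15 of these libraries and far more abundant in AUG_WT replicate 1. The 7 heavy-chain and 2 light-chain genes together took 468 to 3877 reads in 15 libraries, or 0.00419% to 0.0322% of all gene counts. AUG_WT replicate 1 had 25966 reads, or 0.246%. Summed over these 9 genes, the level was 102 ± 37.0 CPM (read counts relative to each library's effective size; SD, n = 4) in AUG, 603 ± 821 in AUG_WT, 114 ± 105 in del7 and 108 ± 31.9 in del7_WT. The SD exceeded the mean only in AUG_WT.

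Several libraries stood apart before any comparison was made. Total gene counts were 7714058 to 14629022 per library. Albumin transcripts made up 4.37% of counts in AUG_WT replicate 1, the lowest share, and up to 11.5% in the others, the highest in AUG_WT replicate 2. AUG_WT replicate 1 differed from the rest of its group by a chi-square of 118 to 174 per gene. AUG_WT replicate 2 differed from replicates 3 and 4 by 69.0 and 93.2, against 17.7 between those. The summed level of 15 B cell genes was 1034 CPM in AUG_WT replicate 1 and 16.4 to 71.0 in the other 15 libraries. The summed level of 10 T cell genes was 165 CPM against 9.42 to 32.7, and that of 10 cell cycle genes 413 against 8.78 to 28.8. AUG_WT replicate 2 ranked next for Ighm among the 16 libraries, followed by del7 replicate 2. AUG replicate 2 held the 71.0 CPM of the B cell list and the 32.7 CPM of the T cell list. The fold changes of the members and of the B-lineage lists in AUG against AUG_WT are therefore given with and without AUG_WT replicate 1. In whole-liver RNA, fewer B-lineage cells and less immunoglobulin mRNA per cell cannot be told apart.

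**Figure D1:**
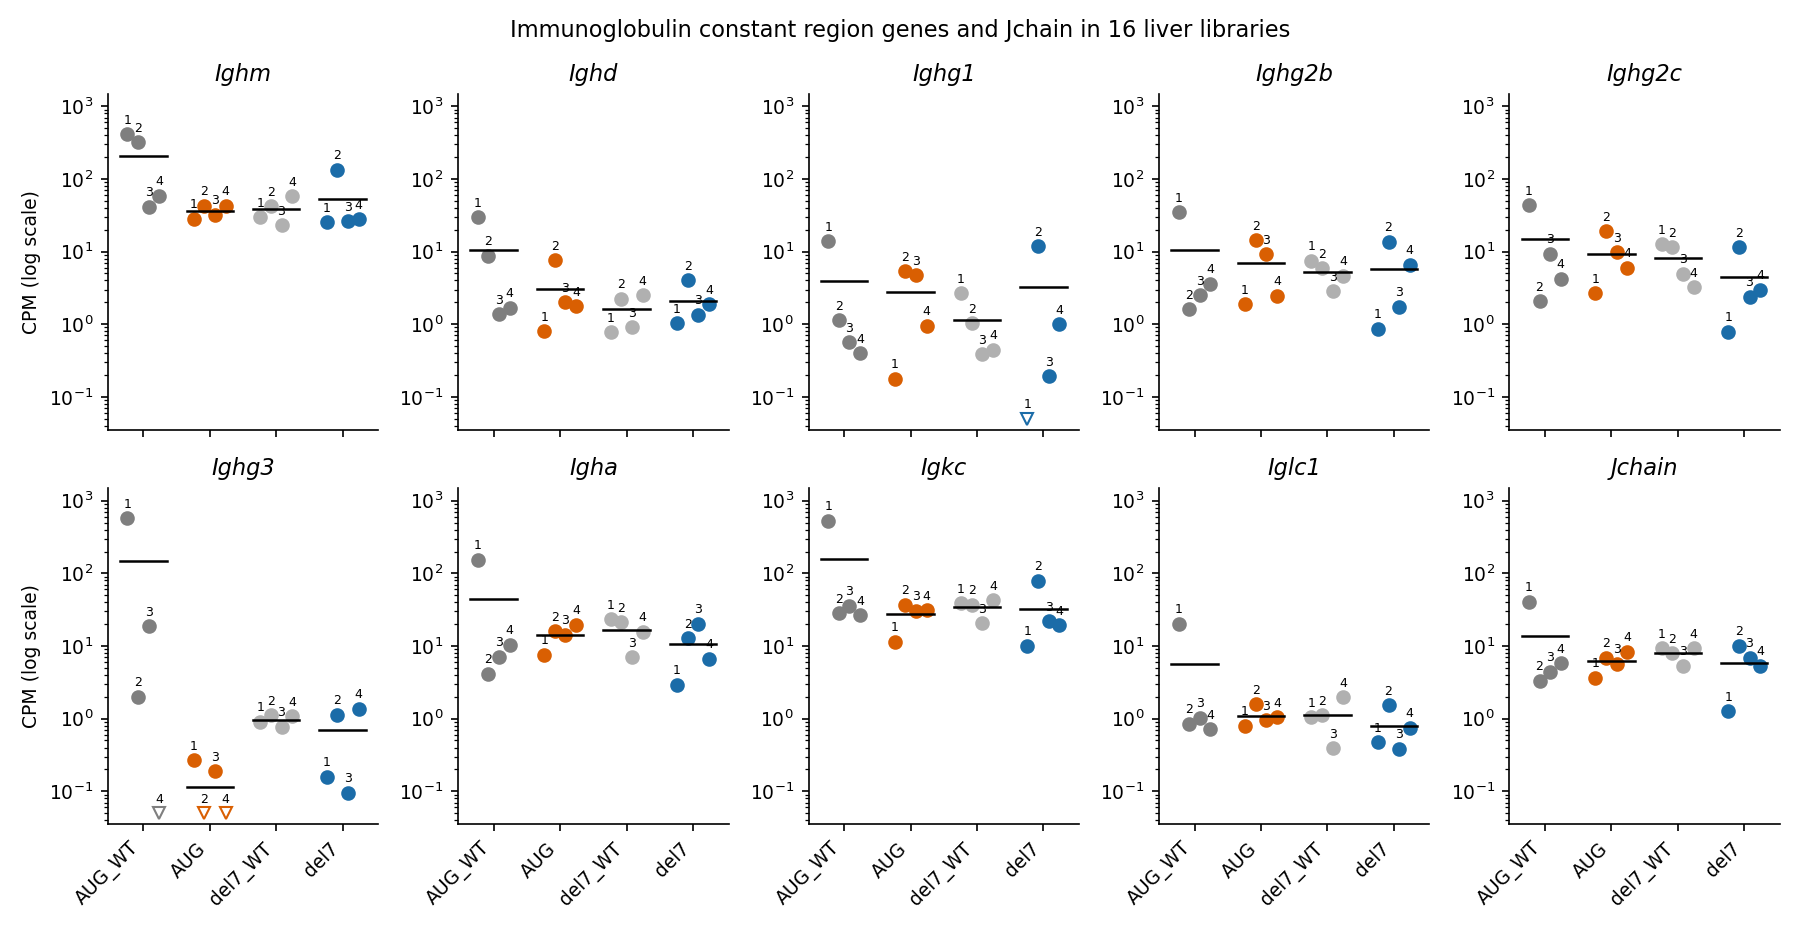
Level of each of the 10 genes in each library (CPM, log scale; the number beside a point is its replicate, the black line the mean of the 4 libraries). Open triangles on the bottom edge mark libraries with 0 counts. AUG_WT replicate 1 lies above the other 3 AUG_WT libraries for every gene, and the AUG_WT mean lies above those 3 libraries for every gene except Ighm, where replicate 2 is also high.

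IgM mRNA was the main heavy-chain mRNA in 15 of 16 libraries. Ighm (ENSMUSG00000076617.10, chromosome 12) encodes the mu chain. Its levels in replicates 1 to 4 were 28.4, 43.0, 32.2 and 42.9 CPM in AUG and 415, 319, 41.3 and 58.7 in AUG_WT. In del7 they were 25.5, 134, 26.1 and 27.7 CPM, and in del7_WT 29.9, 42.0, 22.8 and 58.2. The values above 58.7 CPM were those of AUG_WT replicates 1 and 2 and del7 replicate 2, and the ranges of each mutant and its wild type overlapped. Ighd (ENSMUSG00000104213.6, chromosome 12), the delta chain co-expressed with IgM on naive B cells, reached 29.9 CPM in AUG_WT replicate 1, 8.72 in AUG_WT replicate 2 and 7.57 in AUG replicate 2. The other 13 libraries held 0.771 to 4.04 CPM. Per kilobase of exon, Ighd stood at 17.5% of Ighm in AUG replicate 2 and at 2.56% to 7.14% in the other 15 libraries.

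The 4 IgG genes encode the gamma chains, which differ most in the hinge, the stretch that joins the arms of the antibody to its stem and carries the cysteines that bind the heavy chains to each other. The hinge exons are shown because reads from the IgG genes are told apart by such differences. Each is exon 2 of the gene on the minus strand of chromosome 12, in coding direction, taken from the GENCODE M21 transcripts. Capitals mark in-frame cysteine codons.

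Ighg1: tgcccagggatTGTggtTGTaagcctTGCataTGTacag

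Ighg2b: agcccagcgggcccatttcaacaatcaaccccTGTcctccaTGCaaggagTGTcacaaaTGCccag

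Ighg2c: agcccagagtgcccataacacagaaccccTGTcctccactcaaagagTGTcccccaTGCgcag

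Ighg3: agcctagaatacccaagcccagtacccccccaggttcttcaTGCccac

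The exons are 39, 66, 63 and 48 nucleotides long and hold 4, 4, 3 and 1 cysteine codons in the order printed. Over the whole coding sequence, identity between pairs ranged from 76.1% (Ighg1 and Ighg3) to 86.3% (Ighg2b and Ighg2c). Of all stretches of 50 nucleotides in a gene's transcripts, 5.49% in Ighg2c, 4.15% in Ighg2b, 1.58% in Ighg3 and 0.393% in Ighg1 also occurred in another gene. At 100 nucleotides none did for any of the 10 genes. Counts of Ighg2b and Ighg2c are therefore the least certain of the set, since how reads shared between genes were counted is not stated beyond the share left out as multimapping. Reads on the opposite strand numbered 10 or fewer for each of the 10 genes over all 16 libraries.

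Ighg2c was the leading IgG gene per kilobase in 13 of 16 libraries. This lead rested in part on its short exon length. In plain counts Ighg2b exceeded it in del7 replicate 1 (11 against 10), del7 replicate 2 (170 against 143) and del7_WT replicate 4 (52 against 36). Ighg2c (ENSMUSG00000076612.9, chromosome 12) encodes one of the gamma 2 chains. Its levels were 2.67, 19, 9.70 and 5.99 CPM in AUG and 43.4, 2.09, 9.32 and 4.23 in AUG_WT. In del7 they were 0.790, 11.5, 2.40 and 2.99 CPM, and in del7_WT 12.6, 11.4, 4.93 and 3.22. The 3 AUG_WT libraries other than replicate 1 lay inside the AUG range or just below it. Ighg2b (ENSMUSG00000076613.5, chromosome 12) followed a like order, with 34.5 CPM in AUG_WT replicate 1, 14.4 in AUG replicate 2, 13.7 in del7 replicate 2 and 0.869 to 9.13 in the other 13. Ighg1 (ENSMUSG00000076614.8, chromosome 12) peaked in the same libraries, with 13.8 CPM in AUG_WT replicate 1, 11.9 in del7 replicate 2 and at most 5.37 elsewhere. In del7 replicate 1 it had 0 counts, which allows up to 0.237 CPM.

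Ighg3 had the widest range of the 10 genes. Ighg3 (ENSMUSG00000076615.5, chromosome 12) encodes the gamma 3 chain, a subclass known for responses to carbohydrate antigens. Its counts were 3, 0, 2 and 0 in AUG and 8259, 21, 164 and 0 in AUG_WT. In del7 they were 2, 14, 1 and 11, and in del7_WT 13, 12, 6 and 12. The 8259 reads of AUG_WT replicate 1 came to 579 CPM, and those of AUG_WT replicate 3 to 18.6 CPM. AUG_WT replicate 4, with 0 counts, is held to at most 0.239 CPM, and AUG replicates 2 and 4, also at 0 counts, to 0.316 and 0.239 CPM. The AUG and AUG_WT ranges therefore met at 0 counts, while del7_WT kept within 0.779 to 1.11 CPM.

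IgA mRNA was present in every library at moderate levels. Igha (ENSMUSG00000095079.7, chromosome 12) encodes the alpha chain of mucosal antibody. Its levels were 7.56, 16.1, 14.3 and 19.6 CPM in AUG and 153, 4.17, 7.16 and 10.4 in AUG_WT. In del7 they were 2.92, 12.8, 20.2 and 6.72 CPM, and in del7_WT 23.3, 21.2, 7.01 and 15.7. AUG_WT thus held the highest Igha value of the series, and its other 3 libraries lay in the lower part of the range of the remaining groups.

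The light chains followed the heavy chains except in AUG_WT replicate 2. Igkc (ENSMUSG00000076609.3, chromosome 6), the kappa constant region, had 11.5, 37.2, 30.7 and 30.9 CPM in AUG and 532, 28.2, 36.0 and 26.5 in AUG_WT. In del7 the levels were 10.1, 79.4, 22.0 and 19.3 CPM, and in del7_WT 39.0, 36.8, 20.6 and 42.8. Only AUG_WT replicate 1 and del7 replicate 2 stood above the common range of 10.1 to 42.8 CPM. Iglc1 (ENSMUSG00000105906.2, chromosome 16), a lambda constant region, had 20.2 CPM in AUG_WT replicate 1 and 0.384 to 1.97 in the other 15. Jchain (ENSMUSG00000067149.7, chromosome 5), the joining chain of polymeric IgM and IgA, had 41.0 CPM in AUG_WT replicate 1, 10.1 in del7 replicate 2 and 1.26 to 9.39 elsewhere.

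Isotype make-up was expressed as each heavy chain's share of the 7 heavy-chain genes, after counts were divided by the length of the annotated exons in kilobases. These lengths run from 1326 nucleotides for Ighg2c to 2678 for Ighg2b and include parts that a secreted transcript lacks, so shares of plain reads were computed as well. IgM held 55.4% ± 13.4 (SD, n = 4) in AUG, 65.8% ± 24.9 in AUG_WT, 68.7% ± 12.3 in del7 and 56.0% ± 13 in del7_WT. The 4 IgG genes together held 26.1% ± 13.3, 25.1% ± 22.1, 14.9% ± 8.07 and 24.8% ± 10.1 in the same order. In AUG_WT the IgM share was 38.3% in replicate 1 and 94.6% in replicate 2.

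**Figure D2:**
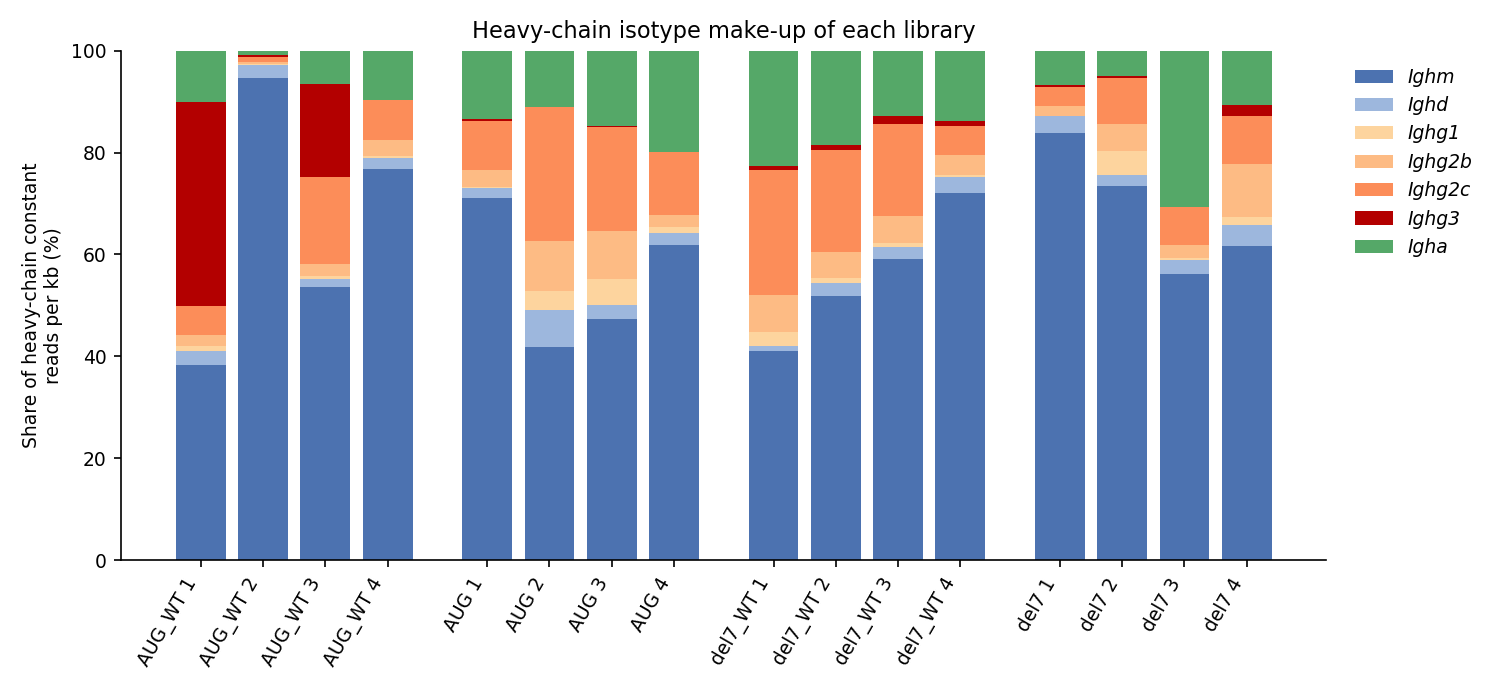
Share of each heavy-chain gene in the heavy-chain constant reads per kilobase of each library (%, stacked to 100; 1 bar per library). AUG_WT replicates 1 and 3 hold the large Ighg3 shares, AUG_WT replicate 2 is almost wholly Ighm, and del7 replicate 3 holds the largest Igha share.

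Per kilobase, Ighm led the heavy chains and Ighg2c the IgG genes in all 4 libraries of AUG and of del7_WT. In AUG_WT both the leading heavy chain and the leading IgG gene differed between libraries. In del7 Ighm led throughout and only the leading IgG gene differed, with Ighg2b in replicate 4. The IgM and IgG shares varied most in AUG_WT, and the IgA share in del7. In AUG_WT replicate 1, Ighg3 was the leading heavy chain with 40.1% per kilobase (45.6% of plain reads, 95% Wilson interval 44.9% to 46.4%) and 81.9% of IgG. In AUG_WT replicate 3, Ighg3 held 18.2% per kilobase (23.1% of 711 reads, interval 20.1% to 26.3%) and led IgG with 47.6%. In AUG, del7 and del7_WT, Ighg3 held at most 2.28% of any library. These intervals cover counting error only, since reads without molecular identifiers are not independent molecules.

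Of the IgM, IgG and IgA shares, only the IgA share separated groups. It was 13.4%, 11%, 14.8% and 19.9% in AUG replicates 1 to 4 and 9.99%, 0.875%, 6.57% and 9.59% in AUG_WT. All 4 AUG libraries lay above all 4 AUG_WT libraries, and so did all 4 del7_WT libraries, at 12.8% to 22.5%. The means were 14.8% ± 3.76 in AUG, 6.75% ± 4.21 in AUG_WT and 16.9% ± 4.49 in del7_WT (SD, n = 4). Both differences from AUG_WT gave an exact two-sided permutation p of 0.0286, the smallest that 4 against 4 allows, and 0.171 after Benjamini-Hochberg adjustment over the 12 share tests, so neither passed. AUG_WT enters both tests. Del7 ranged from 4.94% to 30.6%, with 38.7% of plain reads in replicate 3 (95% Wilson interval 34.7% to 42.9%). Its mean of 13.2% ± 11.8 did not differ from del7_WT beyond that spread (difference -3.67 percentage points, exact permutation p = 0.629, adjusted 0.943).

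The other shares that were tested separated no groups. Shares of single IgG genes were not tested. Among them, Ighg2b held 0.337% to 3.31% of heavy chains in AUG_WT and 4.05% to 7.24% in del7_WT, ranges that did not overlap. The IgM share differed by -10.3 percentage points between AUG and AUG_WT (exact permutation p = 0.486, n = 4 and 4) and by 12.7 between del7 and del7_WT (p = 0.200). The IgG share differed by 0.936 points between AUG and AUG_WT (exact permutation p = 0.914) and by -9.90 between del7 and del7_WT (p = 0.143). Iglc1 per kilobase made up 4.89% ± 1.85 of Igkc plus Iglc1 in AUG and 3.50% ± 0.530 in AUG_WT (exact permutation p = 0.171). It made up 3.44% in both del7 (SD 1.58) and del7_WT (SD 1.23). All 12 adjusted values were 0.171 or above.

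AUG_WT replicate 2 combined a high Ighm level with few reads from the rest of an antibody. Its 3363 Ighm reads were 94.2% of its heavy-chain constant reads (95% Wilson interval 93.4% to 94.9%). Light chains per kilobase stood at 0.307 of heavy chains there and at 1.10 to 1.98 in the other 15 libraries. Heavy-chain variable segments gave 2.44 reads per 100 heavy-chain constant reads, against 9.38 to 16.1 in the others. Jchain per kilobase was 0.773% of Ighm plus Igha there, against 3.43% to 15.1% elsewhere. The high Ighm count of this library was thus not accompanied by like counts of Igkc, Igha, Jchain or variable segments.

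Jchain relative to the chains it joins was lower throughout AUG_WT. Per kilobase it stood at 5.11% ± 2.94 of Ighm plus Igha in AUG_WT (range 0.773% to 7.17%), 9.72% ± 1.24 in AUG (8.10% to 11.1%) and 12.5% ± 2.55 in del7_WT (10.1% to 15.1%; SD, n = 4). The AUG_WT range lay below the other 2. In del7 the ratio was 8.47% ± 4.81 and spanned 3.43% to 12.8%. No test was set for this ratio, and it shares its Igha reads with the IgA share above.

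Single libraries carried most of the AUG_WT means. AUG_WT replicate 1 was the highest library of its group for all 10 genes, and its share of the group's summed CPM ran from 49.8% for Ighm to 96.6% for Ighg3, with a median of 83.6%. Over all tested genes the highest AUG_WT library held a median of 32.5%, and 11.7% of genes had more than 50% in 1 library, against 9 of the 10 described here. Without replicate 1 the AUG_WT mean of Ighg3 went from 150 to 6.88 CPM, that of Igkc from 156 to 30.2, and that of Igha from 43.7 to 7.24. The mean of Ighm went from 209 to 140 CPM, because replicate 2 remained, and without both it was 49.96 CPM. The reduced Igkc mean lies within the AUG range of 11.5 to 37.2 CPM, the reduced Igha mean just below the AUG range, and those of Ighm and Ighg3 above the AUG ranges.

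**Figure D3:**
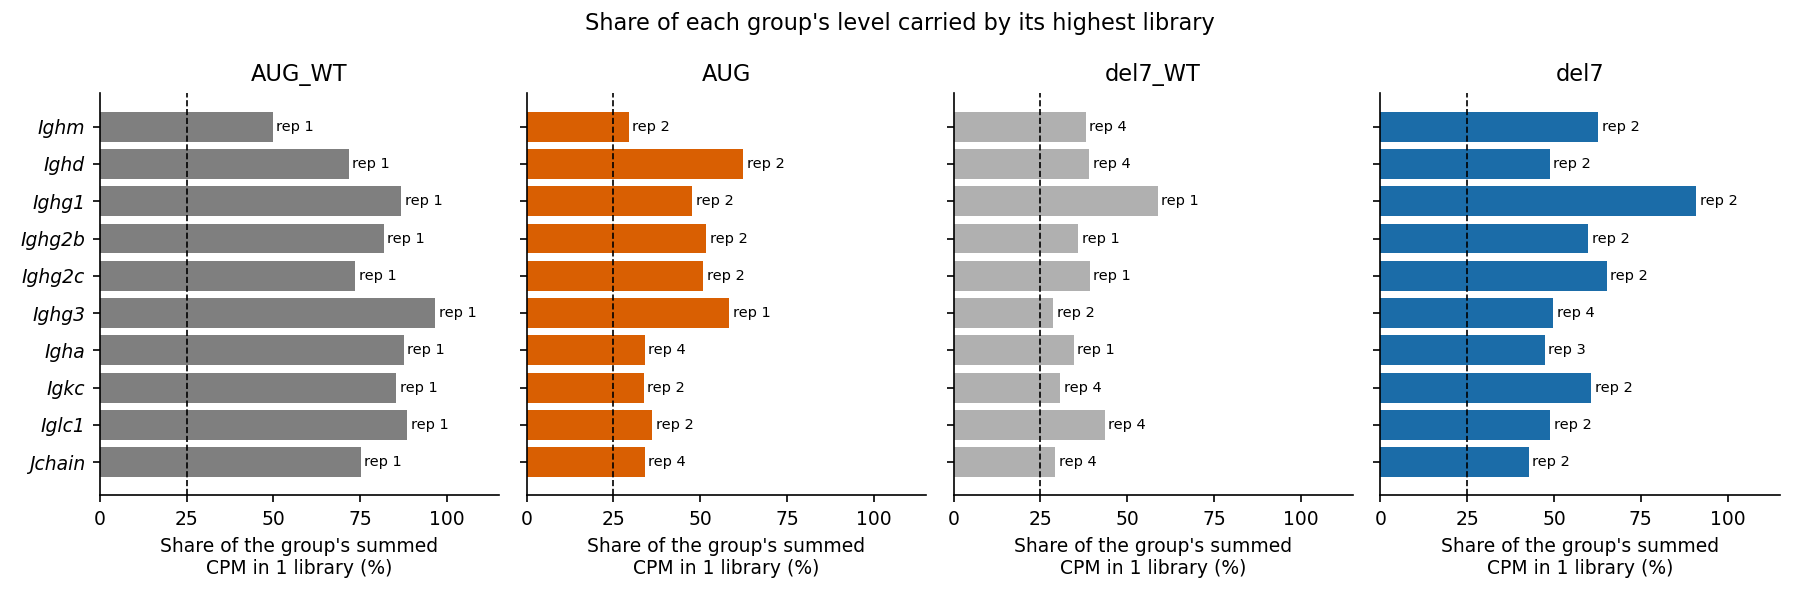
Share of each group's summed CPM that falls in its highest library (%, 1 bar per gene, labelled with that replicate; dashed line at 25%, the value for 4 equal libraries). The AUG_WT bars are all replicate 1 and reach 96.6%, whereas the del7_WT bars come from replicates 1, 2 and 4.

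The other groups rested on single libraries to a lesser degree. In del7, replicate 2 was highest for 8 of the 10 genes and held 90.9% of the Ighg1 sum, and 5 of the 10 genes had more than 50% in 1 library, against 1.65% of all genes. Without it the del7 mean of Ighm went from 53.3 to 26.5 CPM, that of Igkc from 32.7 to 17.1 and that of Ighg1 from 3.26 to 0.396. In AUG, replicate 2 was highest for 7 genes, and 4 of the 10 had more than 50% in 1 library, against 2.38% of all genes. In del7_WT the highest library was replicate 4 for 5 genes, replicate 1 for 4 and replicate 2 for 1. There 1 gene, Ighg1, had more than 50% in 1 library, against 1.05% of all genes.

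The question of the AUG comparison is whether the CUG/AUG genotype alters immunoglobulin mRNA in liver. All 10 genes had a lower fitted level in AUG than in AUG_WT, yet none passed. The median log2 fold change was -1.71, against -0.04 over all tested genes. In edgeR's quasi-likelihood test with Benjamini-Hochberg adjustment, 0 of 10 were called, where 0.0277% of all 14421 genes were. At an unadjusted p under 0.05 there were 4 (Ighg3, Ighm, Igkc and Iglc1), against 8.81% of all genes. DESeq2 and limma's voom, which also called none, had 2 and 1. DESeq2 gave no p-value for Ighg3, Igkc, Iglc1 and Igha, so its count does not cover them. Of all genes, 56.2% had a log2 fold change below 0. No gene of the 10 had separate AUG and AUG_WT ranges, which 2.05% of all genes had.

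The largest fitted difference was that of Ighg3, with means of 0.114 ± 0.136 CPM in AUG and 150 ± 286 in AUG_WT (SD, n = 4; log2 fold change -10.23, SE 2.22, edgeR adjusted p = 0.561). Ighm had 36.6 ± 7.49 CPM in AUG and 209 ± 187 in AUG_WT (-2.51, SE 0.71, edgeR adjusted p = 0.561). Igkc had 27.6 ± 11.2 and 156 ± 251 CPM (-2.50, SE 0.91, edgeR adjusted p = 0.561). The remaining log2 fold changes were -2.40 for Iglc1, -1.81 for Ighd, -1.61 for Igha, -1.16 for Jchain, -0.68 for Ighg2c, -0.63 for Ighg2b and -0.54 for Ighg1, with edgeR adjusted p-values up to 0.922. In AUG_WT the SD exceeded the mean for 9 of the 10 genes, all except Ighm.

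The direction rested on 1 library. Without AUG_WT replicate 1, 6 of the 10 genes were higher in AUG and 4 lower, and the median log2 fold change was 0.41. Igha then stood at 1.00, Ighg1 at 1.99, Ighg2b at 1.42, Ighg2c at 0.87, Jchain at 0.46 and Iglc1 at 0.36. Ighm (-1.91, edgeR adjusted p = 0.791) and Ighg3 (-5.73, edgeR adjusted p = 0.473) stayed below 0, as did Ighd (-0.37) and Igkc (-0.12). AUG_WT replicate 2 was also high for Ighm and Ighd, and replicate 3 for Ighg3. No gene of the 10 was called then, where 0.0274% of genes were, and 2 had an unadjusted p under 0.05, against 5.92%. Of all genes, 47.5% were then below 0.

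**Figure D4:**
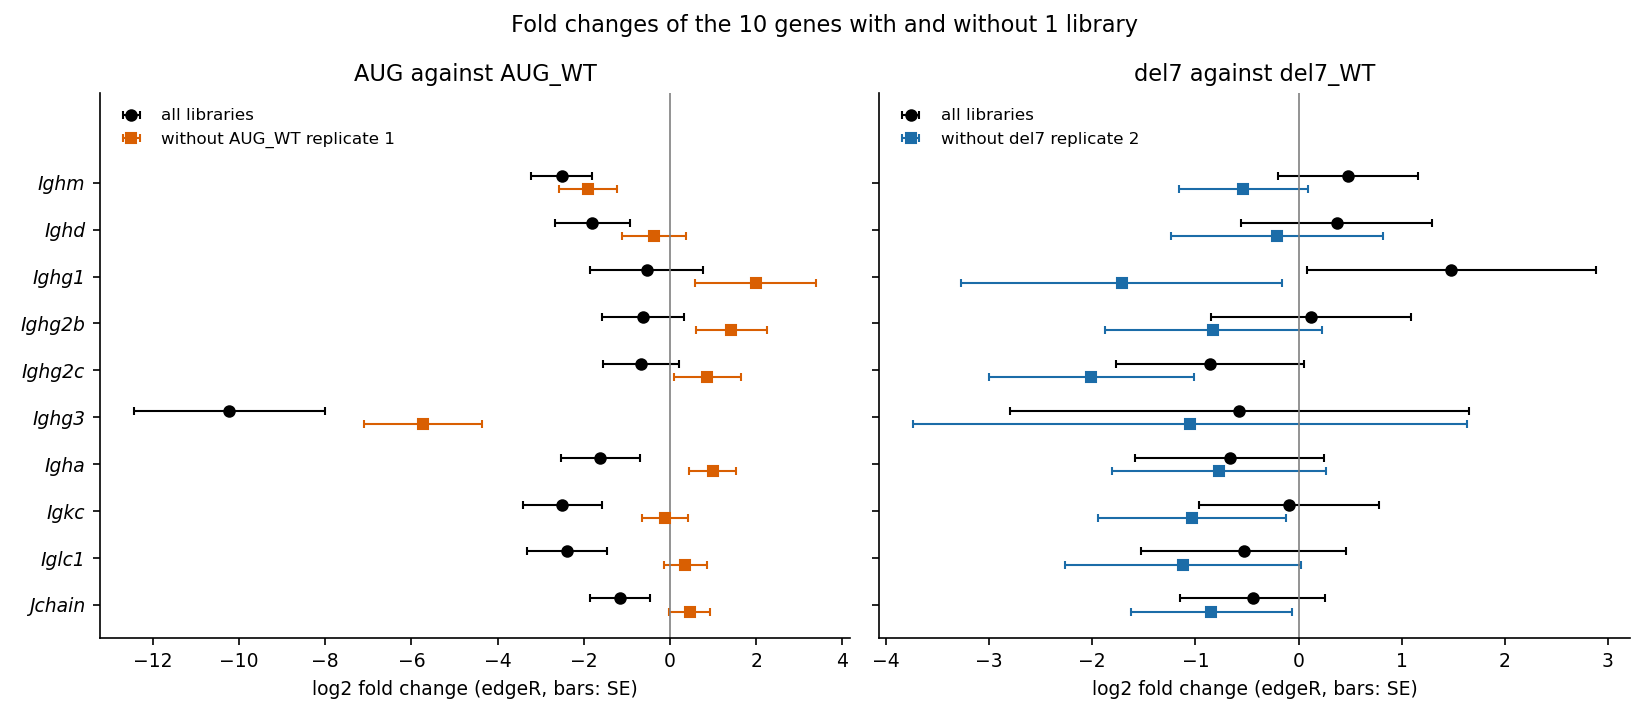
Log2 fold change of each gene in AUG against AUG_WT (left) and del7 against del7_WT (right), with bars of 1 SE. Black circles use all libraries, and coloured squares leave out AUG_WT replicate 1 (left) or del7 replicate 2 (right). On the left 6 squares lie above 0 where all circles lie below, and on the right all 10 squares lie below 0.

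The del7 comparison asks the same of the deletion, and there the 10 genes showed no common direction. Against del7_WT, 4 were higher and 6 lower, with a median log2 fold change of -0.27 against 0.00 over all genes, of which 49.9% were below 0. Ighm had 53.3 ± 53.7 CPM in del7 and 38.2 ± 15.5 in del7_WT (log2 fold change 0.48, SE 0.68, edgeR adjusted p = 1). Ighg1 had the largest value, 1.48 (SE 1.40). In edgeR 0 of 10 were called, as were 0% of all genes, and 0 of 10 had an unadjusted p under 0.05, against 1.92% of all genes. The 2 groups did not separate for any of the 10, as they did for 4.01% of all genes. Limma's voom also called 0 of the 10. DESeq2 called none either, but gave no p-value for Igha, Ighg3, Igkc and Iglc1. Without del7 replicate 2 all 10 were lower in del7, with a median of -0.94, and none was called. In whole sums, the 9 chain genes stood at 1.05 times the del7_WT level with that library and 0.570 times without it.

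The difference between the AUG and del7 effects was not called for any of the 10 genes in edgeR, where 0.00693% of all genes were. At an unadjusted p under 0.05 there were 2, Ighm (-2.99, SE 0.97) and Ighg3 (-9.65, SE 3.68), against 5.21% of all genes, with an edgeR adjusted p of 0.864 for both. The fitted difference was below 0 for 9 of the 10 genes and for 54.9% of all genes. That direction rested on AUG_WT replicate 1: without it 6 of the 10 were above 0 (Ighg2c 1.73, Igha 1.67, Ighg2b 1.31, Jchain 0.91, Iglc1 0.90 and Ighg1 0.53), Igkc stood at -0.02, and none was called. Ighm (-2.38) and Ighg3 (-5.16) remained below 0. Between the wild-type groups, all 10 genes were higher in AUG_WT than in del7_WT, with a median log2 fold change of 1.97 against 0.03 over all genes, of which 44.6% were below 0. None was called in edgeR, where 0.0347% of all genes were, and 5 had an unadjusted p under 0.05, against 11.8%. No gene of the 10 had separate ranges there, against 3.53% of all genes. DESeq2 called Ighm there (log2 fold change 2.43, adjusted p = 0.0353). In edgeR that Ighm difference was 2.45 (adjusted p = 0.287) with all libraries, 1.84 (0.496) without AUG_WT replicate 1 and 0.37 (0.929) without replicates 1 and 2. Without AUG_WT replicate 1, 7 of the 10 were lower in AUG_WT, with a median of -0.57. AUG_WT is shared by this contrast and the AUG contrast.

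Variable segments were counted beside the constant regions. A B cell clone uses 1 rearranged heavy-chain segment, and several clones can use the same one, so segment shares do not count clones. In AUG_WT replicate 1, Ighv3-6 took 1529 of 2629 heavy-chain segment reads, or 58.2% (95% Wilson interval 56.3% to 60.03%), and Ighv9-3 another 30.7%. Among kappa segments, Igkv12-41 took 1775 of 3420 reads, or 51.9% (interval 50.2% to 53.6%), and Igkv8-19 another 30.8%. In the other 15 libraries Ighv3-6 had at most 21 reads, in del7 replicate 3, and Igkv12-41 at most 4. The lambda segment Iglv1 had 950 reads in AUG_WT replicate 1 and 2 to 18 elsewhere, and the lambda constant genes Iglc3 and Iglc2 had 1532 and 534. With all 3 lambda genes, lambda made up 25.6% of light chains per kilobase there, against 2.86% to 13.7% elsewhere. Ighv9-3, Igkv8-19, Iglv1, Iglc2 and Iglc3 were named after their values had been seen.

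Leading segments took large shares in some other libraries too. In AUG_WT replicate 2, Ighv2-9-1 took 44.8% of 87 heavy-chain segment reads (95% Wilson interval 34.8% to 55.3%) and Igkv8-30 took 54.5% of 112 kappa reads (45.2% to 63.4%). In AUG_WT replicate 3, the other library with a large Ighg3 share, Igkv3-4 took 47.5% of 122 kappa reads (38.9% to 56.3%). In del7 replicate 1, Ighv9-1 took 45.5% of 55 heavy-chain reads (33.0% to 58.5%) and Igkv12-44 took 40.0% of 55 kappa reads (28.1% to 53.2%). Leading kappa segments took 9.93% to 17.9% in AUG, and in AUG_WT replicate 4 the share was 16.5%, so the kappa ranges of AUG and AUG_WT overlapped. The effective number of heavy-chain segments, the inverse of the chance that a pair of reads falls on 1 segment, was 10.4 to 49.9 in AUG and 2.29 to 9.51 in AUG_WT. It was 4.57 to 21 in del7 and 9.65 to 38.0 in del7_WT. The AUG and AUG_WT ranges did not overlap for heavy-chain segments, and no test was set for this measure, which rests on 29 to 272 reads per library outside AUG_WT replicate 1. Del7 replicate 2, with high Ighm and Igkc, had its heavy-chain reads spread over 49 segments with a leading share of 14%.

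**Figure D5:**
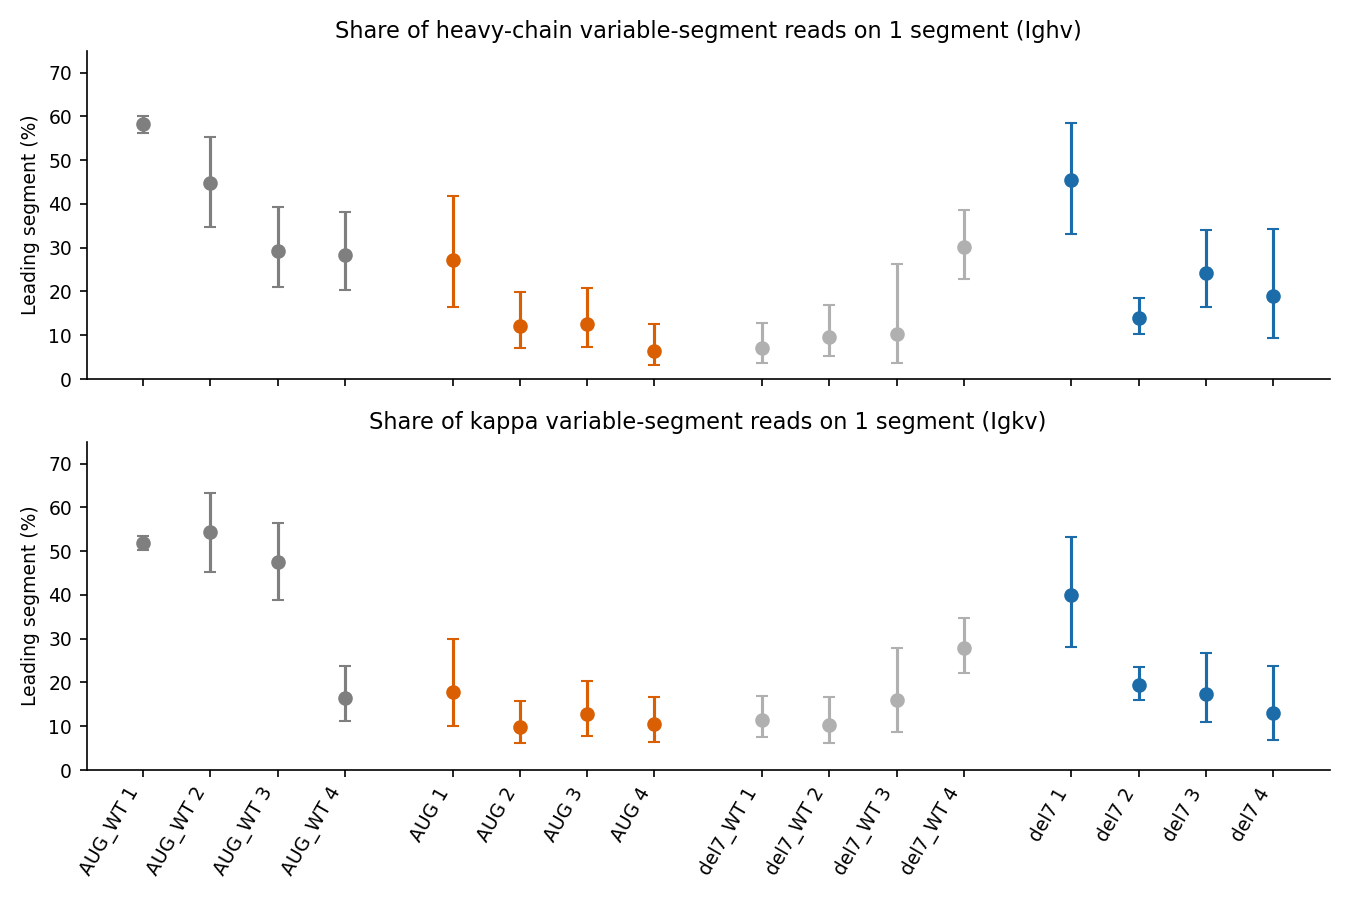
Share of variable-segment reads that fall on the most counted segment of each library (%, points; bars are 95% Wilson intervals), for heavy-chain (top) and kappa segments (bottom). Leading kappa segments hold 47.5% to 54.5% in AUG_WT replicates 1 to 3, 16.5% in AUG_WT replicate 4 and 9.93% to 17.9% in the AUG libraries.

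Genes of B cells and plasma cells were examined as lists beside the 10 genes. Of 15 B cell surface and signalling genes, 12 were tested, all 12 were lower in AUG than in AUG_WT with a median log2 fold change of -2.98, and none was called (edgeR). Cd22, an inhibitory receptor, had 331 CPM in AUG_WT replicate 1 and 1.69 to 10.8 in the other 15 libraries (log2 fold change -4.04, edgeR adjusted p = 0.561). Pax5, the transcription factor of B cell identity, had 96.7 against 0.779 to 5.58 CPM (log2 fold change -3.41). Both were thus high in 1 library only. Without it 8 of 13 tested genes were higher in AUG and 5 lower, with a median of 0.08, Cd22 at 0.30 and Pax5 at -0.06. In del7 the smallest p-values belonged to Cd72 (0.83), Cd79b (0.71) and Pax5 (0.73), none called.

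AUG_WT replicate 2, with high Ighm, summed to 34.4 CPM over the B cell list and del7 replicate 2 to 33.6, both below the 71.0 CPM of AUG replicate 2. The summed T cell list in these libraries was 24.5 and 23.2 CPM. The stromal chemokine Cxcl13, which draws B cells into follicles, had 77.9 CPM in AUG_WT replicate 1 and 0.559 to 22.6 elsewhere. Cxcl13 was named after its values had been seen, and the part of other cell types in the AUG_WT level was not tested.

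Of 12 plasma cell genes, 10 were tested, with 4 higher and 6 lower in AUG and none called. Without AUG_WT replicate 1, 6 were higher and 4 lower, with Pou2af1 at -0.94, Tnfrsf13b at -0.41 and Irf4 at 0.36. Pou2af1, a B-lineage co-activator, had 132 CPM in AUG_WT replicate 1 and 0.35 to 2.58 elsewhere (log2 fold change -5.02, edgeR adjusted p = 0.561). Tnfrsf13b, a receptor for survival factors, had 12.6 against 0.35 to 1.48 CPM, and Irf4, a transcription factor of plasma cells, 27.6 against 0.771 to 2.74. Mzb1 and Tnfrsf17, defining plasma cell genes, were near or at 0, with Mzb1 at 1.61 CPM in AUG_WT replicate 1 and at most 0.280 elsewhere, and Tnfrsf17 at most 0.14 CPM in any library. Xbp1 and Sdc1 are also made by hepatocytes, and the sum of this list, 633 to 927 CPM, was not highest in AUG_WT replicate 1 (792 CPM). In del7 the smallest p-values belonged to Prdm1 (log2 fold change 0.91), Xbp1 (-0.15) and Fkbp11 (0.15), none called.

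Among 10 class switch and germinal centre genes, 6 were tested, with 5 lower and 1 higher in AUG and none called. Without AUG_WT replicate 1 the count turned to 1 lower and 5 higher, with Mybl1 at 0.93, Fas at 0.16 and Bach2 at -0.54. With all libraries Bach2, a repressor active in B cells, stood at -0.57, Mybl1 at -0.77 and Fas at -0.16 in AUG, and Bach2 at -0.42, Bcl6 at 0.81 and Ung at 0.43 in del7. Of 7 B cell precursor genes only Dntt was tested (-0.59 in AUG and 0.14 in del7, none called, and -0.72 in AUG without AUG_WT replicate 1), and Rag1, Rag2 and Vpreb2 had 0 counts in all 16 libraries. Igll1 had 1 read in all. The summed precursor list was 1.96 to 9.66 CPM, with 3.51 in AUG_WT replicate 1.

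Of 12 genes for plasma cell homing and survival, 7 were tested, 6 lower and 1 higher in AUG, and none was called. Cxcr4, the homing receptor for bone marrow, stood at -2.40 in AUG, Tnfsf13b, the B cell survival factor BAFF, at -1.75, and the integrin Itgb7 at -0.97. Each was highest in AUG_WT replicate 1, at 46.1, 8.42 and 21.5 CPM. Without that library 5 were higher and 2 lower in AUG, with Cxcr4 at 0.46, Tnfsf13b at -0.05 and Itgb7 at 0.04. In del7 Tgfb1 stood at 0.48, Itga4 at 0.61 and Itgb7 at 0.42.

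Of 12 genes that bind or carry antibodies, 11 were tested, with 4 higher and 7 lower in AUG, 8 higher and 3 lower in del7, and none called in either. Without AUG_WT replicate 1, 7 were higher and 4 lower in AUG. Pigr, the polymeric immunoglobulin receptor, had 2016 ± 114 CPM in AUG, 1546 ± 708 in AUG_WT, 1891 ± 58.3 in del7 and 2059 ± 228 in del7_WT (SD, n = 4; edgeR adjusted p = 0.677 in AUG and 1 in del7). Its lowest value, 787 CPM, was in AUG_WT replicate 1, the library with the most Igha and Jchain. Hepatocyte genes summed to 48999 CPM in that library and to 108782 to 167846 in the others. The part of the hepatocyte level in the Pigr value was not tested. Cd5l, a macrophage protein that binds IgM, had 146 ± 73.0 CPM in AUG and 119 ± 64.0 in AUG_WT, and 136 ± 33.3 in del7 and 73.8 ± 14 in del7_WT (log2 fold change 0.88, SE 0.35, edgeR adjusted p = 1). The del7 and del7_WT ranges of Cd5l did not overlap, at 87.5 to 159 and 53.9 to 86.2 CPM, as for 4.01% of all genes.

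Receptors for the Fc stem of antibodies gave the smallest p-values of this list in AUG with all libraries, and in del7 apart from Cd5l. Fcmr, the IgM receptor of B cells, had 42.3 CPM in AUG_WT replicate 1 and 0.288 to 3.05 elsewhere. Its log2 fold change in AUG was -3.18 (edgeR adjusted p = 0.561). Fcgr2b, the inhibitory IgG receptor, stood at -0.26 and Fcgr3 at -0.59 in AUG. Without that library Fcmr stood at -0.14, Fcgr2b at -0.15 and Fcgr3 at 0.16. In del7 Fcgr4, an activating IgG receptor of myeloid cells, had 9.22 ± 8.12 CPM against 2.41 ± 0.683 in del7_WT (log2 fold change 1.95, SE 0.59, edgeR adjusted p = 1), and Fcgr1 stood at 0.82. Kupffer cell genes summed to 248 to 428 CPM in del7 and 153 to 249 in del7_WT, and their part in these values was not tested.

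The 10 genes varied together in part. Spearman's rho between pairs over the 16 libraries ran from -0.08 to 0.91, with the highest value for Igkc and Iglc1 and 0.84 for Igkc and Jchain. Ighg3 stood apart, with 0.35 to Igkc and 0.08 to Jchain. Outside the immunoglobulin loci, the genes with the highest rho to Igkc were Cep120 and Jchain (0.84 each), Brip1 (0.83), Lrrc18 and Gm4924 (0.81 each). To Ighm they were Abhd12 (0.91), Trim26, Zap70 (0.88 each), Setbp1 and Manea (0.87 each). To Igha they were Pip4k2c (0.88), Jchain (0.82), Xdh (0.79), Snx29 (0.74) and Cyfip1 (0.73). These are the extremes of 14410 ranked genes over libraries that share the 4 groups, and they are given as a description.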

How the data were processed

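The deposited values are raw gene counts for 16 liver libraries. The tools named per the submitters' processing notes are cutadapt 2.10 and STAR 2.7.9a, with build GRCm39. No annotation release is named there. Counts in the table of the whole series were those of the reverse-strand column of every library's own file. GENCODE M21 (GRCm38) gave names, chromosomes, exon lengths and sequences only, so no coordinates are printed. Unassigned reads stayed out: unmapped 2.82% to 3.93%, multimapping 9.23% to 15.0%, outside genes 21.8% to 35.0%.

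Counts were fitted with edgeR 4.0.16 in R 4.3.3 (filterByExpr, minimum count 10; TMM; group means over 16 libraries, 12 residual degrees of freedom; glmQLFTest; adjusted p under 0.05 over 14421 genes, two-sided). CPM use TMM-scaled library sizes. Shares were compared with exact permutation tests in scipy 1.17.1, and sequences with Biopython 1.88. The fit was tested on simulated data. The closest libraries of a group differed by a chi-square of 10.7 per gene, so all were counted. Named genes were the 10, up to 3 of smallest p per pathway list and mutant, Pigr, Cd5l, the 5 of highest rho and leading segments. Some genes are not reported here. Members and lists were chosen with earlier results of these data known. Same-numbered replicates did not correlate in both lines (r -0.16 to 0.35 in AUG, 0.09 to 0.28 in del7), so numbers were not taken as pairs. The best match did have the same number for replicates 1, 2 and 3 in del7, but only for replicate 4 in AUG. Alternatives were RLE, no filter, a mean of 1 CPM, DESeq2 1.42.0, limma 3.58.1 voom, the unstranded column, the compared groups alone, a replicate block, and each library left out.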

Additional observations from a re-analysis of the deposited data

Results flagged for a closer look

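The gap from the highest library to the nearest of the other 3, as a share of the group's range, was set against Dixon's 95% limit. That limit flags about 1 in 20 by chance where values are normally distributed. Normality was not checked for CPM, so the rate may differ here. In 9 of 56 groups of 4 libraries that were examined, the highest library passed the limit. In 7 of them it was AUG_WT replicate 1: Ighg3 at 579 CPM, Igkc at 532, Igha at 153, Jchain at 41.0, Ighg2b at 34.5, Iglc1 at 20.2 and Ighg1 at 13.8. In the other 2 it was del7 replicate 2, with Ighm at 134 CPM and Ighg1 at 11.9. The 56 groups share libraries and are not independent. Ighm in AUG_WT did not meet this limit, since replicates 1 and 2 were both high.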

How the results depend on the processing

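No alternative called any of the 10 genes in AUG against AUG_WT, del7 against del7_WT or the difference between them. DESeq2 called 1 between the wild types, where edgeR called 0. DESeq2 gave no p-value, adjusted or unadjusted, for Igha, Ighg3, Igkc and Iglc1, and Ighg3 was not tested with the AUG groups alone. With 1 library left out, the log2 fold change in AUG ran from -1.97 to 1.00 for Igha, -1.05 to 1.99 for Ighg1, -1.25 to 1.42 for Ighg2b, -1.28 to 0.87 for Ighg2c, -2.76 to 0.36 for Iglc1 and -1.46 to 0.46 for Jchain, each positive only without AUG_WT replicate 1. In del7 it ran from -0.21 to 0.67 for Ighd, -1.71 to 2.37 for Ighg1, -0.82 to 0.49 for Ighg2b, -0.53 to 0.76 for Ighm and -1.03 to 0.21 for Igkc. Ighd, Ighg1 and Ighm were negative only without del7 replicate 2, Ighg2b without it or del7_WT replicate 3, and Igkc positive without del7 replicate 1, 3 or 4 or del7_WT replicate 4. Without AUG_WT replicates 1 and 2 together, chosen after seeing the data, Ighg1 stood at 2.53, Ighg2b at 1.18, Ighd at 0.97, Igha at 0.72, Ighg2c at 0.49, Iglc1 at 0.35 and Jchain at 0.27 in AUG. Ighg3 (-6.17), Ighm (-0.43) and Igkc (-0.16) stayed below 0 in that fit. With voom, Ighg1 was -0.77 and Ighg2b -0.63 in del7. Apart from the libraries left out, the cause was not tested.

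Differences in shares with 1 library left out ran, for IgG, from -6.81 to 8.88 points in AUG and -7.60 to 8.09 between the wild types, and for Iglc1 from -0.59 to 0.56 in del7 and -0.37 to 0.61 between the wild types. In shares of plain reads the IgG difference in AUG was -2.31 points. The IgA differences kept their sign throughout, but 3 against 4 cannot give an exact p below 0.0571. The summed level in AUG was 0.169 times that of AUG_WT, 0.431 by medians, 0.133 to 0.517 with 1 library left out and 0.910 without AUG_WT replicates 1 and 2. In del7 it was 1.05, or 0.842 by geometric means, 0.594 by medians and 0.570 to 1.27 with 1 library left out.

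With the replicate number as a block, 0 of the 10 genes were called in each comparison, and Ighg1 in AUG stood at 0.26. Members with few reads limit precision: Iglc1 had 3 to 22 reads in 15 libraries.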

Other observations

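Kupffer cell genes, which mark the resident macrophages of liver, summed to 153 to 249 CPM in del7_WT and 248 to 428 in del7, and 5 of the 6 tested had an unadjusted p under 0.05 in del7 against del7_WT with none called (edgeR, median log2 fold change 0.89), where 1.92% of all genes had such a p and 0% were called. Del7 replicate 2, the library with the most Ighm of its group, held 428 CPM. In AUG they summed to 227 to 543 CPM, with the highest value in AUG replicate 2, the library with the most Ighg2b and Ighg2c of its group, and in AUG_WT to 236 to 504, with the highest value in replicate 1.

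Red cell genes summed to 2966 CPM in AUG_WT replicate 4 and to 133 in AUG_WT replicate 1, and to 985 in del7 replicate 2, the highest value of the other 15 libraries. Acinar enzymes of pancreas summed to 40.2 CPM in AUG replicate 1 and 3.16 to 7.74 in the other 15 libraries, and Igha in AUG replicate 1 was 7.56 CPM, the lowest of its group. Gut epithelium genes summed to 18.7 CPM in AUG_WT replicate 1, the lowest of the 16 libraries, and Igha was highest there. Of these 8 genes only Fabp2 and Lgr5 passed the filter on low counts, and they alone made up the sum in AUG replicate 1 and del7_WT replicate 3. In AUG_WT replicate 1, 3 of the 8 had 0 counts, against 5 or 6 in each of the others. Krt20 and Reg3b had reads in that library only. Its sum of hepatocyte genes was the lowest too, at 48999 CPM against 108782 to 167846. A part of gut tissue in the Igha level was not tested.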
